A study of Mus musculus with 24 samples.

Results

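The miR-200 family (miR-200a, miR-200b, miR-200c, miR-141 and miR-429), miR-203 and miR-205 are microRNAs (miRNAs) known for their high levels in epithelia. Their 7 mouse guide-strand assays (mmu-miR-200a, mmu-miR-200b, mmu-miR-200c, mmu-miR-141, mmu-miR-429, mmu-miR-203 and mmu-miR-205 in the files) were followed in muscle stem cells after injury. They were picked by assay name from the 584 miRNA assays measured, with earlier results of these data known. All 7 stand among the 375 assays of card A. Muscle stem cells are the resident stem cells of skeletal muscle, and the study compared quiescent cells with activated cells by real-time PCR on TaqMan rodent miRNA cards. The groups were activated cells harvested 36, 60 and 72 h after muscle injury and quiescent cells, labelled 0 h, all from male C57BL/6 mice aged 8 weeks. The labels give no genotype, no cell sort and no injury method. Each group had 3 arrays of card A and 3 of card B, 24 arrays in all. The series' design text calls these technical replicates, so every SD and p-value covers the spread between arrays and not that between mice.

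The miR-200 family keeps epithelial cells in their state mainly by repressing Zeb1 and Zeb2, transcription factors that switch off E-cadherin and drive the epithelial-to-mesenchymal transition. miR-205 also targets Zeb1 and Zeb2 and is abundant in stratified epithelia such as skin and breast. miR-203 is a skin miRNA that promotes keratinocyte differentiation, in part by repressing the stem cell factor p63. Skeletal muscle is not a tissue in which these miRNAs are known as abundant.

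The mature sequences show which assays share a seed (bases 2 to 8 from the 5′ end, in capitals), the stretch that pairs with target mRNAs. All 7 members matched a mature miRNA of RefSeq, build GRCm38.p6. The card names carry no arm, so each was read as the arm that carries the plain name in current nomenclature, which is the 5p arm for miR-205 and the 3p arm for the other 6.
miR-200b-3p: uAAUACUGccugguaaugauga
miR-200c-3p: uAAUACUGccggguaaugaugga
miR-429-3p: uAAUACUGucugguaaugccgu
miR-200a-3p: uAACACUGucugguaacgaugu
miR-141-3p: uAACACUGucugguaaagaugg
miR-203-3p: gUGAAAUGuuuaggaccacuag
miR-205-5p: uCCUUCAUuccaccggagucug

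The 5 family members fall into 2 seed groups. miR-200b, miR-200c and miR-429 share AAUACUG, and miR-200a and miR-141 share AACACUG. The seeds differ by the single substitution U4C, with positions counted from the 5′ end. miR-203 and miR-205 have seeds of their own, UGAAAUG and CCUUCAU. Within the first seed group, miR-200b and miR-200c are identical at 20 of 22 positions and differ by U11G and A22G. In the other, miR-200a and miR-141 are also identical at 20 of 22 positions and differ by C17A and U22G. How far one assay reads its near relative is not given in the sources used here. miR-200c had a Ct on arrays where miR-200b, its nearest relative in sequence, had none.

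The genes lie in 4 places. Mir200b, Mir200a and Mir429 form a cluster on chromosome 4 whose hairpins span 1846 bases inside the long noncoding RNA gene Gm13648, with the mature miR-200b at chr4:156055685-156055706, minus strand. Mir200c and Mir141 form a second cluster on chromosome 6 whose hairpins span 477 bases, between Phb2 and Ptpn6 and overlapping no other annotated gene, with the mature miR-200c at chr6:124718324-124718346, minus strand. Mature miR-203 lies at chr12:112130927-112130948, plus strand, between Aspg and Kif26a. Mature miR-205 lies at chr1:193507503-193507524, minus strand, within the long noncoding RNA gene Mir205hg. Each seed group has members in both clusters.

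Most of the family was not detected in these cells. The cards report a threshold cycle, or Ct, for each spot: the fewer PCR cycles the signal needs to reach a set threshold, the more RNA was there, and a spot without a Ct did not reach it in 40 cycles. An assay was counted as detected on an array if every spot of it had a Ct below 35. Of the 84 member spots (7 assays on 12 arrays of card A, 1 spot each), 65 had no Ct. miR-200a, miR-200b, miR-141 and miR-429 had no Ct on any of the 12 arrays. Over card A, 34.4% of the 375 assays had no Ct on any array, a smaller share than the 4 of 7 members, which are few assays. miR-203 was detected on 12 of 12 arrays, as were 40.5% of the card A assays. miR-200c and miR-205 were detected on some arrays, and above all at 36 h. The map of detection shows 1 member filled across all times, 2 members filled at 36 h, and empty cells for the whole chromosome 4 cluster.

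**Figure D1:**
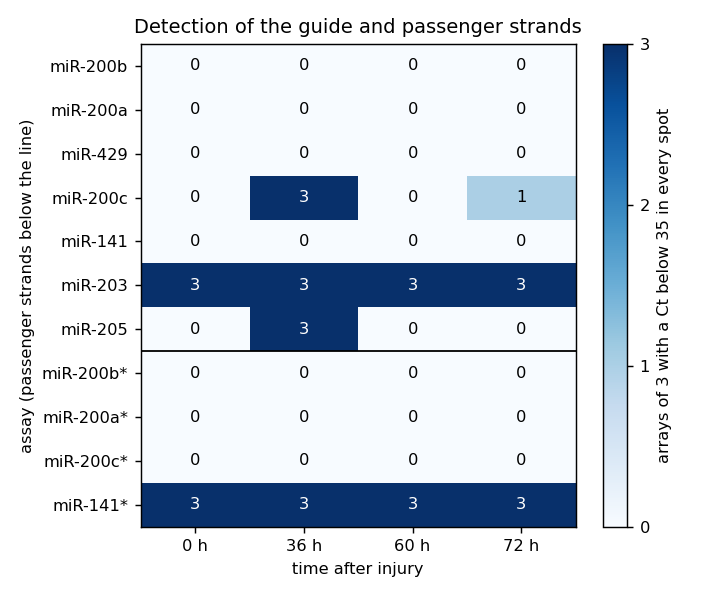
Number of arrays out of 3, per assay (rows) and time after injury (columns), on which every spot had a Ct below 35; guide strands stand above the line and passenger strands below it. miR-203 and miR-141* are at 3 at every time, miR-200c and miR-205 at 3 at 36 h, and 7 of the 11 assays are at 0 throughout.

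Levels are given in log2 units relative to U6 small nuclear RNA: an assay's Ct was subtracted from the mean Ct of the 4 U6 spots on the same array, so a higher level means more RNA per U6. The mean U6 Ct on card A at 0, 36, 60 and 72 h was 15.4, 14.9, 15.4 and 15.1. In the same order of times, 181 to 183, 210 to 212, 188 to 190 and 191 to 195 assays were detected per array, so the 36 h arrays had the most. The muscle-lineage miRNAs miR-1, miR-133a, miR-133b, miR-206 and miR-489, a list chosen with results of these data known, were detected in every replicate of every group. Of these 5, 3 were called higher and 1 lower at 36 h against 0 h, and 4 higher and 1 lower at 60 h and at 72 h. Over all tested assays, 44.1%, 28.0% and 20.9% were called higher at 36, 60 and 72 h, and 12.1%, 36.4% and 45.9% lower. The list had a median at 72 h of 2.83 (log2), against -0.77 over all tested assays. The summed level of the list, per 1000000 U6, was 492204 to 522693 at 72 h, against 62570 to 79190 at 0 h. miR-206 had the highest level of the list at both times, -1.03 at 72 h and -3.86 at 0 h, and weighed most in that sum. The level of the one called lower, miR-489, a miRNA of quiescent muscle stem cells, changed by -1.40, -4.85 and -6.66 (log2) in activated cells of 36, 60 and 72 h against 0 h. The normalizers compared were U6, snoRNA135, snoRNA202 and the mean of all detected assays. That mean is the mean Ct of the miRNAs detected on every array of a card. With each of these, miR-489 was called lower at 60 and 72 h, and with each but snoRNA202 at 36 h. Of the 5 list assays, 4 were called higher at 36 h with snoRNA202, and 2 with the mean of all detected assays. In all, 180 assays were called higher at 36 h with snoRNA202 and 59 with that mean, against 120 with U6.

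miR-203, the miRNA of keratinocyte differentiation, was the sole member measured at all times, and its level relative to U6 was lower at 60 and 72 h than at 0 h. At 0 h its Ct was 24.6, 24.5 and 24.6, and its levels were -9.22, -9.05 and -9.22. At 36 h its Ct was 23.6, 23.7 and 23.5, and its levels were -8.77, -8.78 and -8.61. These are the highest levels of miR-203, and the 36 h and 0 h arrays did not overlap. At 60 h its Ct was 26.2, 26.2 and 26.3, and its levels were -10.78, -10.85 and -10.91. At 72 h its Ct was 27.2, 27.3 and 27.3, and its levels were -12.04, -12.08 and -12.28. The group means at 0, 36, 60 and 72 h were -9.16 ± 0.09, -8.72 ± 0.10, -10.85 ± 0.06 and -12.13 ± 0.13 (SD, n = 3 each). The order was 36 h, 0 h, 60 h, 72 h from high to low, and no neighbours in that order overlapped.

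The 6 comparisons were tested with limma, with Benjamini-Hochberg adjustment over all tested assays of both cards. A call needed an adjusted p below 0.05 together with a change of 2-fold or more. At 36 h against 0 h, miR-203 was the 1 member tested. Its level was 0.44 ± 0.08 (SE) higher on the log2 scale, or 1.36-fold (limma, adjusted p = 0.000715), which is under the 2-fold limit, so 0 of 1 tested members were called, where 56.2% of all 272 tested assays were. At 60 h against 0 h, miR-203 fell by 1.68 (log2), to a level 3.21-fold lower (limma, adjusted p = 1.92e-08). At 72 h against 0 h it fell by 2.97 (log2), to a level 7.83-fold lower (limma, adjusted p = 1.6e-10). Lower calls were common in both comparisons: 36.4% of 250 tested assays were called lower at 60 h and 45.9% of 244 at 72 h.

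Between the activated groups, miR-203 was lower at each later time. At 60 h against 36 h its level was 4.37-fold lower (log2 -2.13, limma, adjusted p = 4.29e-09), where 49.5% of 279 tested assays were called lower. At 72 h against 60 h it was 2.44-fold lower (log2 -1.29, limma, adjusted p = 4.48e-07), where 35.8% of 265 were called lower. At 72 h against 36 h it was 10.7-fold lower (log2 -3.41, limma, adjusted p = 6.32e-11), where 69.3% of 270 were called lower. The call at 60 h against 36 h was lost with snoRNA202 or the mean of all detected assays as the normalizer, and the call at 72 h against 60 h with either of these or snoRNA135. These comparisons share groups, so they are not separate evidence. The plot of levels shows the 4 groups of miR-203 as separate steps.

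**Figure D2:**
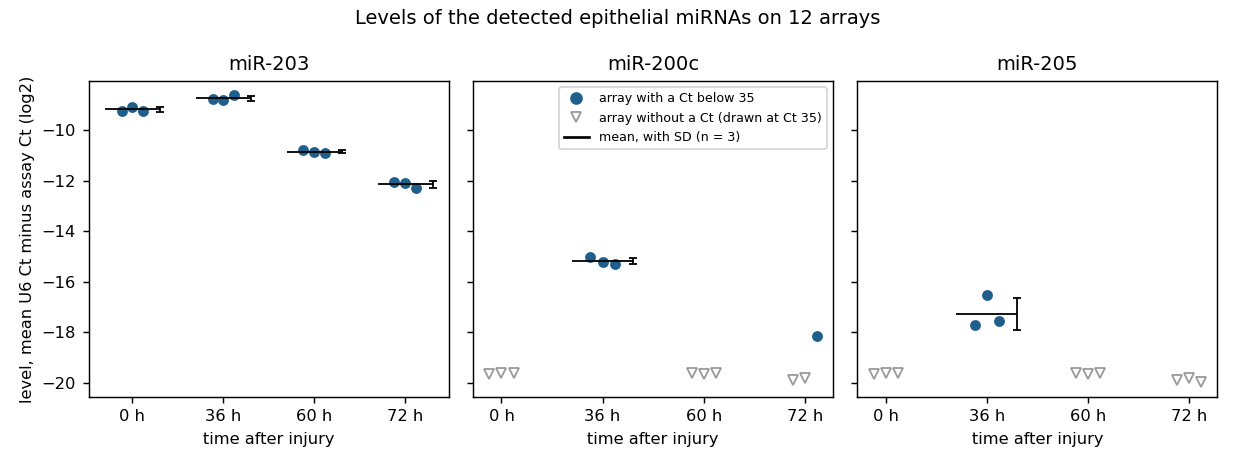
Level relative to U6 (mean U6 Ct minus assay Ct, log2) of miR-203, miR-200c and miR-205 by time after injury, 1 point per array; open triangles are arrays without a Ct, drawn at Ct 35, and lines with bars are means with SD (n = 3). miR-203 steps down from 36 h to 72 h, and miR-200c and miR-205 have 3 measured arrays at 36 h, with 1 measured array of miR-200c at 72 h.

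Since so many assays were called relative to U6, miR-203 was also set against the tested assays of card A. At 36 h against 0 h the median assay was higher by 0.91 (log2), miR-203 differed from that median by -0.46, and 39.0% of 177 assays had a lower value. At 60 h against 0 h the median was -0.49, miR-203 differed from it by -1.19, and 30.4% of 168 assays had a lower value. At 72 h against 0 h the median was -1.37, miR-203 differed from it by -1.60, and 22.9% of 166 assays had a lower value. miR-203 was thus below the median assay in all 3 comparisons and inside the bulk of the distribution in each.

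**Figure D3:**
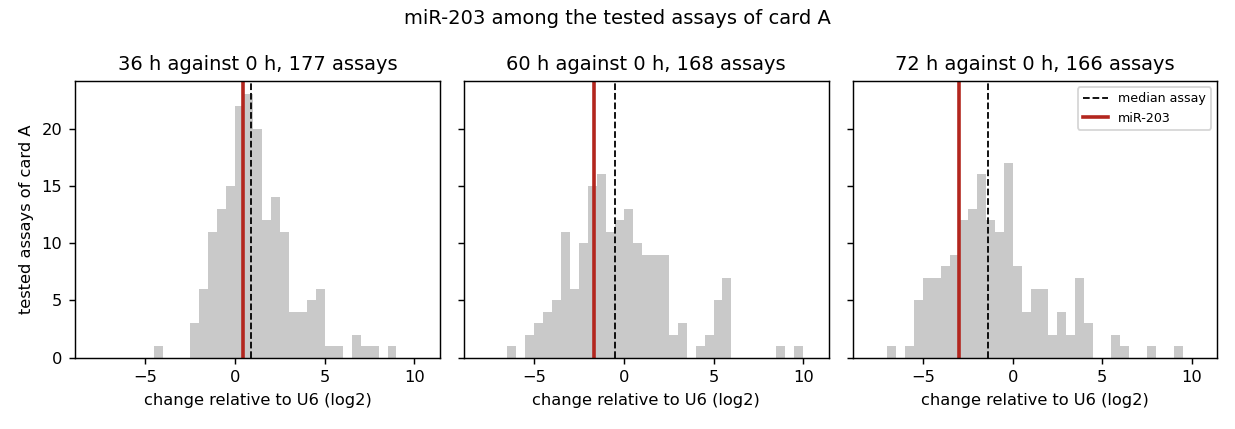
Histograms of the change relative to U6 (log2) for the tested assays of card A at 36, 60 and 72 h against 0 h; the dashed line marks the median assay and the solid line miR-203. The solid line stands left of the dashed line in each panel, with differences of -0.46, -1.19 and -1.60.

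The direction of the miR-203 change depended on the normalizer. Relative to U6 on card A, the small nucleolar RNA snoRNA202 itself changed by -0.88, -2.40 and -3.05 (log2) at 36, 60 and 72 h against 0 h, and snoRNA135 by -0.22, -0.34 and -0.87. With snoRNA135, miR-203 kept the directions it had with U6: 0.66 at 36 h, -1.35 at 60 h and -2.10 at 72 h against 0 h. With snoRNA202 the changes were 1.32, 0.72 and 0.08, so it was called higher at 36 h (limma, adjusted p = 2.93e-07) and not called at 60 or 72 h. With the mean of all detected assays they were -0.85, -1.53 and -1.94, so the sign at 36 h was turned. The median of all tested assays moved too: at 36, 60 and 72 h it was 0.82, -0.37 and -0.77 with U6, and 1.74, 2.08 and 2.04 with snoRNA202. miR-203 stayed below that median under each of the 4 normalizers at each time. The change at 72 h against 36 h was called lower under all 4, at -3.41 with U6, -2.76 with snoRNA135, -1.24 with snoRNA202 and -1.09 with the mean of all detected assays. The plot by normalizer shows the snoRNA202 values above the others at every time.

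**Figure D4:**
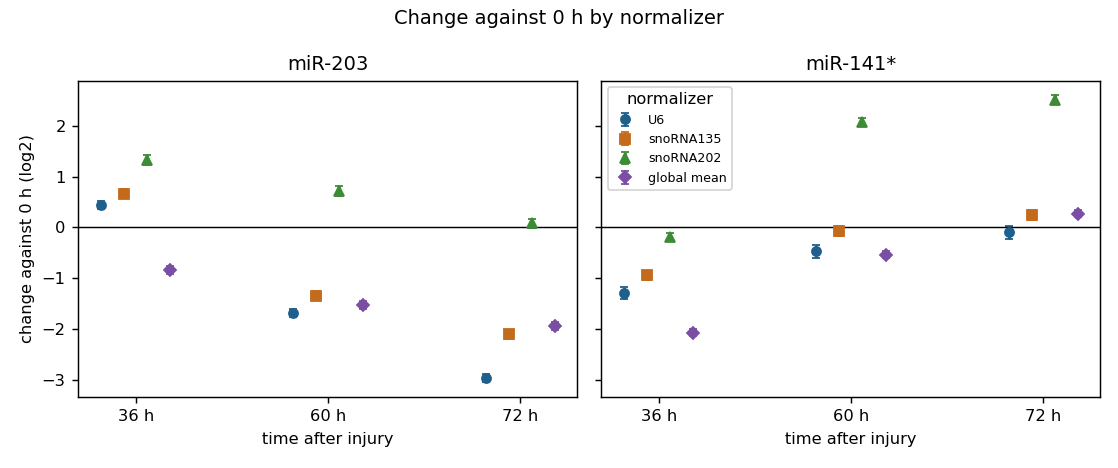
Change against 0 h (log2, bars are SE) of miR-203 and of the passenger strand miR-141* at 36, 60 and 72 h under 4 normalizers. For miR-203 at 72 h the values run from -2.97 with U6 to 0.08 with snoRNA202, and for miR-141* at 72 h from -0.10 with U6 to 2.51 with snoRNA202.

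The authors' deposited table gave miR-203 average folds against day 0 of 1.36 at day 1.5, 0.311 at day 2.5 and 0.128 at day 3.5, the last of which the sample labels call 72 h. The 3 assays of card A closest to miR-203 in their centred profile over the 4 group means, among 160 compared, were miR-376a, miR-125b-5p and miR-337-3p. Their root-mean-square differences from miR-203 were 0.101, 0.181 and 0.190 (log2), where the median over all compared assays was 0.919. miR-376a changed by 0.59 at 36 h, -1.83 at 60 h and -2.96 at 72 h against 0 h. miR-125b-5p changed by 0.29, -1.64 and -3.39, and miR-337-3p by 0.22, -1.70 and -3.44.

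miR-200c, a repressor of Zeb1 and Zeb2 and the sole guide strand of the family with a Ct, was detected on all arrays at 36 h and on 1 array at another time. At 36 h its Ct was 29.9, 30.1 and 30.2, and its levels were -15.03, -15.20 and -15.28, with a mean of -15.17 ± 0.13 (SD, n = 3). It had no Ct on the 3 arrays at 0 h or the 3 arrays at 60 h. At 72 h replicate 3 had a Ct of 33.2, a level of -18.15, and the other arrays had none. With the 0 h arrays set to Ct 35, the level at 36 h was at least 21.9-fold higher, and against 60 h at least 21.7-fold higher. With snoRNA202 these bounds were 40.3-fold and 7.52-fold, and with the mean of all detected assays 8.97-fold and 7.94-fold. With U6, the mean at 36 h was 7.89-fold above the 1 measured array at 72 h. That fold is given with U6 alone, and snoRNA202 itself changed relative to U6 by -0.88 at 36 h and -3.05 at 72 h against 0 h (log2). A normalizer that falls between these times, as snoRNA202 did, gives a smaller fold. The bounds and this fold carry no test, since a test needed 2 or more detected replicates of both groups.

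miR-205, the miRNA of stratified epithelia, was detected at 36 h and had no Ct on any of the 9 arrays of the other times. At 36 h its Ct was 32.6, 31.4 and 32.5, and its levels were -17.71, -16.52 and -17.56, with a mean of -17.27 ± 0.65 (SD, n = 3). The spread was wider than that of miR-200c, with replicate 2 above the other arrays. With the undetected arrays set to Ct 35, the level at 36 h was at least 5.13-fold higher than at 0 h, at least 5.07-fold higher than at 60 h and at least 6.14-fold higher than at 72 h. Without 36 h replicate 2, the bound against 0 h was 3.97-fold. With snoRNA202 the bounds were 9.43-fold against 0 h, 1.76-fold against 60 h and 1.36-fold against 72 h. With the mean of all detected assays the bounds against 0 h and 60 h were 2.10-fold and 1.86-fold, and that against 72 h was 1.23-fold. Without 36 h replicate 2, the bound against 72 h was 4.75-fold with U6 and 2.95-fold with snoRNA135. Without that array it was 1.05-fold with snoRNA202, and with the mean of all detected assays no fold above 1 was left. With a detection limit of Ct 32, miR-205 was detected on 1 of 3 arrays at 36 h, and miR-200c on 3 of 3.

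Detection at 36 h in 3 of 3 arrays with none of 3 at 0 h was found for 23 of the 375 assays of card A, or 6.13%, and 2 of them were members. The share was 4.8% for 36 h against 60 h, again with both members, and 3.47% for 36 h against 72 h, with miR-205. Detection on all 36 h arrays and on no other array was found for 5 assays of card A, or 1.33%. They were let-7f, miR-135a, miR-137, miR-205 and miR-511, of which miR-135a had a Ct of 35 or more on 2 other arrays. The other 4, or 1.07% of the card, had no Ct of any size elsewhere. This list was read after the values were seen. The authors' deposited table gave miR-200c average folds of 705, 1.01 and 32.3 at days 1.5, 2.5 and 3.5, and miR-205 folds of 177, 1.01 and 0.836. That table holds 40 in place of each missing Ct, and its folds for the 4 members without any Ct were 0.711, 1.01 and 0.836, which are set by U6 alone.

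Most tested markers of the leukocyte, endothelial and mesenchymal lists were also called higher at 36 h than at 0 h relative to U6. In these bulk samples, more cells of a type and more RNA per cell cannot be told apart. Of 6 leukocyte miRNAs, 5 were tested at 36 h against 0 h, 4 were called higher and 0 lower, with a median of 3.26 (log2). Over all 272 tested assays the median was 0.82, and 44.1% were called higher. The leukocyte miRNA miR-142-3p was higher by 8.54 and miR-223, a miRNA of myeloid cells, by 7.65. miR-142-5p had a Ct below 35 on the 36 h arrays and none at 0 h, and was also detected on 2 arrays at 60 h and 1 array at 72 h. The summed level of the list, per 1000000 U6, was 76109 to 79424 at 36 h and 23978 to 24683 at 0 h. It was 10546 to 11504 at 60 h and 5859 to 6413 at 72 h. At 0 h miR-150 had the highest level of the list, -5.53, and it changed by -3.67 (log2) at 60 h against 0 h. In that comparison 3 of 5 tested leukocyte assays were called higher and 1, miR-150, lower. Their median was 1.91, against -0.37 over all tested assays, of which 28.0% were called higher and 36.4% lower. Both endothelial assays, miR-126-3p and miR-126-5p, were called higher at 36 h against 0 h, with a median of 2.09 and a summed level of 203805 to 206154 at 36 h against 43672 to 46215 at 0 h. Of 5 mesenchymal and smooth muscle assays on the cards, 4 were tested and 3 called higher, with a median of 1.99 and a summed level of 147727 to 153620 at 36 h against 106568 to 115656 at 0 h. In the mesenchymal list miR-145, which had the highest level at 0 h and at 36 h, changed by -0.33 (log2), not called. With the mean of all detected assays as the normalizer, 3 leukocyte, 0 endothelial and 2 mesenchymal assays were called higher at 36 h. In that setting 1 mesenchymal assay was called lower, and over all assays 59 were called higher and 89 lower.

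At 60 h against 36 h, 5 of 6 tested leukocyte assays, both endothelial assays and 4 of 4 tested mesenchymal assays were called lower, where 49.5% of all tested assays were. The medians of these lists were -2.94, -3.86 and -3.45 (log2), against -1.02 over all tested assays. With snoRNA202 or the mean of all detected assays, 4 leukocyte assays were called lower and 1 higher, and the endothelial and mesenchymal counts were unchanged. The erythroid miR-451 was detected on the 36 h arrays and on none at 0 h, with a summed list level of 58.2 to 123 per 1000000 U6 at 36 h. It was also detected on 3 arrays at 60 h and 1 array at 72 h, and miR-486 was not detected on any array. Of the 3 neuronal list assays matched by name, miR-9 was detected on the 36 h arrays and on none at 0 h. It was also detected on 2 arrays of the 60 h group and 1 array of the 72 h group. The other list assays, miR-124 and miR-219, were not detected on any array. The assay miR-128a was not counted in that list. It was detected on all 3 arrays of both the quiescent and the 36 h group, with a change of -0.20 (log2), not called. The summed level of the 6 members other than miR-203 was 30.2 to 37.2 per 1000000 U6 at 36 h, against 0 at 0 h and 60 h and 0 to 3.44 at 72 h. The part of these cell types in the miR-200c and miR-205 signals was not tested.

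The hairpins of 4 family members also have an assay for the other, passenger strand, all on card B in 2 spots per array. miR-200b* and miR-200c* had no Ct in any spot. miR-200a* had a Ct in 4 of 24 spots, between 32.7 and 36.5, never in both spots of an array, so it was not detected. miR-141* differed from these, with a Ct between 27.1 and 28.1 in all 24 spots. Its mature sequence shares no seed with the members, and the guide from the same hairpin had no Ct on any array.
miR-141-5p (miR-141*): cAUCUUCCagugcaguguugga

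Of 93 hairpins with assays for both strands, the passenger was detected on 12 of 12 arrays in 35, or 37.6%. In 3 of the 93, or 3.23%, the passenger was detected on 12 of 12 arrays while the guide had no Ct on any array. They were miR-141, miR-425 and miR-485, the last 2 named after their values were seen. The guide of miR-141 was measured on card A and the passenger on card B.

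Relative to U6, miR-141* was lowest at 36 h, the time at which miR-200c, its neighbour on chromosome 6, was detected. Its levels were -12.09, -11.87 and -11.68 at 0 h, and -13.16, -13.15 and -13.20 at 36 h. They were -12.40, -12.31 and -12.34 at 60 h, and -11.87, -12.08 and -11.97 at 72 h. The 36 h arrays were below all others, and the 0 h and 72 h arrays overlapped. On card B the mean U6 Ct at 0, 36, 60 and 72 h was 15.6, 14.7, 15.5 and 15.6. In the same order the mean Ct of miR-141* was 27.4, 27.9, 27.8 and 27.6. Between 0 and 36 h the U6 Ct thus moved more than that of miR-141* itself. At 36 h against 0 h its level was 2.45-fold lower (log2 -1.29 ± 0.13 SE, limma, adjusted p = 3.18e-06), where 12.1% of all tested assays were called lower. At 60 h against 0 h the value was -0.47 and at 72 h -0.10, both not called, with adjusted p of 0.00473 and 0.497 by limma. At 72 h against 36 h it was 2.29-fold higher (log2 1.20, limma, adjusted p = 3.96e-06), where 4.07% were called higher.

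The change of miR-141* at 36 h against 0 h was -0.95 with snoRNA135 and -0.19 with snoRNA202, neither called, and -2.07 with the mean of all detected assays. At 60 and 72 h against 0 h it was called higher with snoRNA202, at 2.07 and 2.51. In the authors' deposited table its 2 spots had average folds of 1.82 and 2.12 at day 1.5, the opposite direction. That table subtracts 16.97 on card B at 36 h, where the mean U6 Ct of those arrays was 14.7. The subtracted value is higher by 2.26, and a higher subtracted value raises the deposited folds of that time. As log2 values the deposited folds were 0.86 and 1.08, both smaller than 2.26. Its folds were 0.730 and 0.715 at day 2.5, and 0.910 and 0.966 at day 3.5.

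Other miRNAs known from epithelia changed in both directions. All 14 of a list chosen with results of these data known were on the cards. At 36 h against 0 h, 9 were tested, 6 called higher and 1 lower, with a median of 2.69 against 0.82 over all tested assays (log2), of which 44.1% were called higher. At 60 h against 0 h, 5 of 9 were called higher and 3 lower, with a median of 2.04 against -0.37, and at 72 h 5 of 8 higher and 3 lower, with a median of 2.81 against -0.77. Over all tested assays, 28.0% were called higher at 60 h and 20.9% at 72 h. Lower calls made up 12.1%, 36.4% and 45.9% of all tested assays at 36, 60 and 72 h. The lower calls of the list at 60 and 72 h were thus no more frequent than over all tested assays. miR-31, abundant in keratinocytes among other cells, was higher by 7.29 at 36 h, 9.93 at 60 h and 9.01 at 72 h. miR-182, a sensory-epithelium miRNA, was higher by 5.94, 8.69 and 7.74, and miR-21, induced in many growing cells, by 6.62, 5.93 and 4.49. These 3 were called higher under each of the 4 normalizers at each time.

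With U6, miR-215 of that list was called lower at 36 and 60 h. miR-194 and miR-224 were called lower at 60 and 72 h, and miR-192 at 72 h. miR-224 changed by -3.96 at 60 h and -5.11 at 72 h, and it was called lower under all 4 normalizers at these times. miR-194, an intestinal and liver miRNA, changed by -1.69 and -2.46 with U6 and by 0.71 and 0.59 with snoRNA202. miR-192 at 72 h was called lower with U6 alone, at -1.30. It was not called with snoRNA135 (-0.43) or the mean of all detected assays (-0.27), and was called higher with snoRNA202 (1.75). With snoRNA202, 0 assays of the list were called lower at 36 h, and 1, miR-224, at 60 and at 72 h. miR-183 was detected in 3 of 3 arrays at 60 h and at 72 h and in none at 36 h or 0 h. The summed level of the list, per 1000000 U6, was 2469 to 2738 at 0 h, 16940 to 17522 at 36 h, 35401 to 36932 at 60 h and 17511 to 19143 at 72 h. At 60 h the highest levels of the list were those of miR-31, -5.18, and miR-21, -7.55. These assays weighed most in the sum at that time, which does not stand for the list as a whole. No test of the difference between the list and the members was made. The plot of the list shows miR-203 to the right, with the values of 60 and 72 h below 0, as for miR-192, miR-194 and miR-224.

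**Figure D5:**
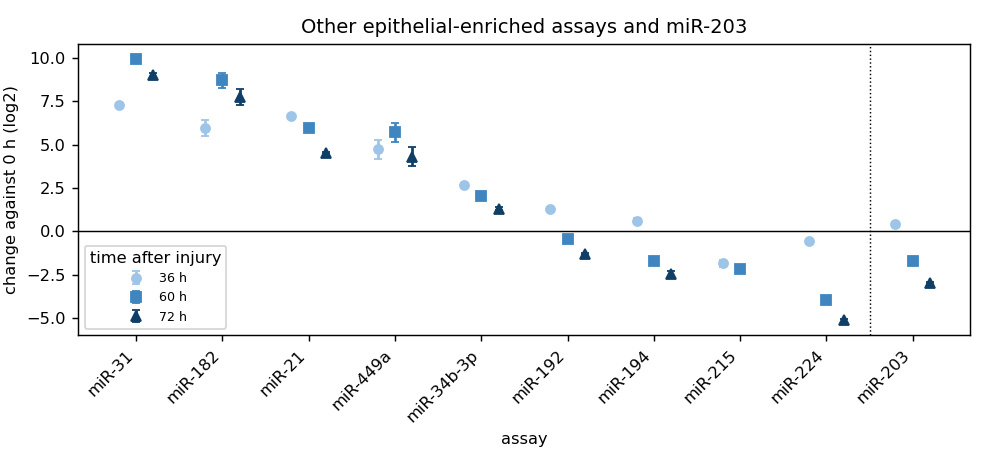
Change relative to U6 against 0 h (log2, bars are SE) at 36, 60 and 72 h for the epithelial list assays tested at 36 h and, right of the dotted line, miR-203. miR-31, miR-182 and miR-21 are above 4 at every time, and miR-203 is at 0.44, -1.68 and -2.97.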

How the data were processed

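Each array's file holds a Ct per spot on an inverse log2 scale, as deposited by the authors and empty where none was determined, per the file headers. Which software and threshold produced them is not stated in the sources used here. For each card a further table deposited by the authors has Ct, dCt and average fold changes against day 0, which are linear ratios. Its last time is day 3.5 per the file headers and 72 h in the labels, and 48 other per-sample columns were not used. Card types were read from assay names. U6 was the normalizer because the deposited dCt is Ct minus the mean U6 Ct of the group, within 0.001, except on card B at 36 h.

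Assays were detected with all spots below Ct 35 and tested where both groups had 2 or more detected replicates. One limma 3.58.1 fit (R 4.3.3) per card over its 12 arrays gave all 6 comparisons, adjusted over both cards and called at an adjusted p below 0.05 and 2-fold. The code was tested on simulated data. A group of 3 arrays limits the precision. Alternatives were the normalizer, the detection limit (Ct 32 or 40), undetected values at Ct 35, 3 of 3 detected replicates, a fit on the compared groups alone, a replicate block and leaving out each replicate.

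The members, the marker lists and the rules were chosen with earlier results of these data known. Named assays were the members, their passenger strands, the 3 nearest profiles, control RNAs, and from each list the called assays with the greatest change, at most 2 each way; others were named after their values were seen. Sequences and positions are from RefSeq, GRCm38.p6, and neighbouring genes from RefSeq by name.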

Additional observations from a re-analysis of the deposited data

How the results depend on the processing

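The calls of miR-203 turned on the normalizer. At 36 h against 0 h, where 0 members were called with U6, snoRNA202 gave 1 called member. With snoRNA202, 180 assays in all were called higher and 6 lower in that comparison, against 120 and 33 with U6. Undetected values set to Ct 35 gave 2 of 3 tested members, miR-200c and miR-205, where 157 assays in all were called higher. Both entered that test only through their 36 h arrays and were set against a fixed Ct, so these calls add no evidence to the bounds. With snoRNA202, 0 members were called at 60 h against 0 h, 72 h against 0 h, 60 h against 36 h and 72 h against 60 h; with snoRNA135, 0 at 72 h against 60 h; and with the mean of all detected assays, 0 at 60 h against 36 h and at 72 h against 60 h. Undetected values at Ct 35 gave 3 of 3 tested members called lower at 60 h and at 72 h against 36 h. In that setting 170 and 228 assays in all were called lower, and miR-200c and miR-205 again entered through their 36 h arrays. miR-203 was reversed at 36 h against 0 h with the mean of all detected assays (-0.85), and with snoRNA202 at 60 h (0.72) and 72 h (0.079) against 0 h. miR-141* was reversed with snoRNA202 at 60 h (2.07) and 72 h (2.51) against 0 h, and at 72 h with snoRNA135 (0.25) and the mean of all detected assays (0.27). The causes were not tested. The bound of miR-200c at 36 h against 0 h was 40.3-fold with snoRNA202, 25.5-fold with snoRNA135 and 8.97-fold with the mean of all detected assays, and that of miR-205 was 9.43-fold with snoRNA202 and 2.10-fold with that mean. Leaving out each replicate in turn left 0 members called at 36 h against 0 h and 1 in each of the other 5 comparisons. It gave miR-203 ranges of 0.39 to 0.50, -1.71 to -1.63 and -3.01 to -2.90 at 36, 60 and 72 h against 0 h, and bounds of 20.9 to 22.8-fold for miR-200c and 3.97 to 5.99-fold for miR-205. For miR-141* at 72 h against 0 h the range was -0.20 to 0.0052.

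The labels number the replicates 1 to 3 in every group, and the labels give no shared source for a number. The deviations of arrays with the same number had r from -0.27 to 0.36 on card A, over 0.1 in 5 of 18 pairs, and from -0.43 to 0.49 on card B, over 0.1 in 4 of 18. On card B the 60 h and 0 h arrays had r of 0.49, 0.49 and 0.34, so these groups deviated together by number, and the 60 h and 36 h arrays had r of -0.43, -0.33 and -0.38. With the replicate block, miR-141* at 60 h against 0 h stayed at -0.47 and was not called (limma, adjusted p = 0.00845). With the replicate block, 0 members were called at 36 h against 0 h and 1 in each of the other 5 comparisons, as without it. Counts over all assays moved with the normalizer: at 72 h against 0 h, 51 were called higher and 112 lower with U6, and 166 higher and 24 lower with snoRNA202. At 36 h against 0 h, 120 were called higher and 33 lower with U6, and 59 higher and 89 lower with the mean of all detected assays. Levels near Ct 35, such as those of miR-205, are limited by the detection limit, and a missing Ct bounds a level and does not show absence.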
